A study of Mus musculus with 11 samples.

Results

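Gene bodies away from CpG islands were examined in the pancreas of newborn mice as 5000 bp tiles of the mouse genome (mm10) that overlapped a gene, touched no promoter listed by the study and lay 5000 bp or more from any CpG island. Tiles were taken from chromosomes 1 to 19 if their mean coverage was at least 10 in both treatment groups. These criteria selected 77482 of the 259716 tiles, and 15182 genes (12306 of them protein-coding) held at least 1 such tile. A further 11643 tiles met the positional criteria but not the coverage minimum. No methylation value entered the choice.

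The 11 mice were wild-type C57BL/6N pups at postnatal day 0. Their dams had received amphetamine (AMPH, 10 mg/kg body weight) on embryonic days 14.5, 15.5 and 16.5 (5 pups, 3 females and 2 males) or saline (6 pups, 3 females and 3 males). Litters were not named in the sources used here, so that litter and treatment cannot be told apart. The same 11 mice were also compared by sex, 6 females against 5 males, and each sex held both treatments. Methylation of a tile was the share of cytosines in CpG sites that were read as methylated, taken as the group average, and was available as mean, SD, lowest and highest mouse. Coverage was a whole number per mouse, averaged over the group, and the sources used here do not say whether it counts reads or CpG calls. Over the gene-body tiles its median was 76.4 in amphetamine-treated and 62.2 in saline mice, and 71.8 in females and 65.0 in males. All 11 mice had reads in 65013 of the 77482 tiles.

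In mammals, methyl groups are placed on the cytosine of CpG sites by DNA methyltransferases, and most CpG sites outside islands carry them. The islands, CpG-dense stretches that often hold promoters, stay largely free of methylation, whereas the transcribed body of a gene is as a rule methylated, introns and exons alike. Unmethylated stretches inside genes are known from enhancers and alternative start sites. In reduced representation bisulfite sequencing, reads begin where a restriction enzyme cuts, here MspI (CCGG) or TaqI (TCGA), so that a tile is seen only through its CpG sites near such a cut. A gene-body tile held a median of 52 CpG sites in the reference, 15 of them within 50 bp of a cut site.

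The sequences below show what such tiles look like between neighbouring cut sites. They were picked from the reference, and the methylation given for a tile was not measured on its printed stretch alone. They are reference sequence on the plus strand of GRCm38, the assembly also named mm10, with every CpG in capitals, and each is the stretch of 40 to 300 bases inside the gene that holds most CpG sites in its tile. The first set comes from the gene-body tiles of lowest methylation in saline mice, in introns of Nckap5 (chr1:126737565-126737688) and the long intergenic RNA gene Gm14342 (chr2:180853732-180853987), and in an annotated exon of Pde4dip (chr3:97824108-97824236). They held 4, 7 and 7 CpG sites.
Nckap5: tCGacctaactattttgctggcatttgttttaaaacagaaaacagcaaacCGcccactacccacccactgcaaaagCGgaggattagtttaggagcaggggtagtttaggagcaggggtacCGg
Gm14342: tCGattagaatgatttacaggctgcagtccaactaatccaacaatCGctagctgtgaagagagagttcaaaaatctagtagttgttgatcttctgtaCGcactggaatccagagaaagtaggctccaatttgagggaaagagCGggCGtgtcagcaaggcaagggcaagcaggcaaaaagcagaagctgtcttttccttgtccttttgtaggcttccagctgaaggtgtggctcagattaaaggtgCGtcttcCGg
Pde4dip: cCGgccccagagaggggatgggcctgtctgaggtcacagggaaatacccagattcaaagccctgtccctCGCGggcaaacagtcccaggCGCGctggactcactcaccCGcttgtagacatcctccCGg
The second set comes from tiles in which amphetamine-treated and saline mice did not overlap, in introns of Spen (chr4:141503939-141504226), which was higher after amphetamine, and Etl4 (chr2:20371480-20371748), which was lower. They held 11 and 3 CpG sites.
Spen: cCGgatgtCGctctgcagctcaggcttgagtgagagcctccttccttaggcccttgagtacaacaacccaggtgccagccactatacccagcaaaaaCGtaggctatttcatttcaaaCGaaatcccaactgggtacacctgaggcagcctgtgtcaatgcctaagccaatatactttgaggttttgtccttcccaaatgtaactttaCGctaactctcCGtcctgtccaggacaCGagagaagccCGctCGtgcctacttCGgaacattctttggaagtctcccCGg
Etl4: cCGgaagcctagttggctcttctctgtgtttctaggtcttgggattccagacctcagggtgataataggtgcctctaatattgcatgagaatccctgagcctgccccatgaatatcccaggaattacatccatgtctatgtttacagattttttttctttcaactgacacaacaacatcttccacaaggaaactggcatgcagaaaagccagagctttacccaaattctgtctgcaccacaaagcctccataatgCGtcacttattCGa
The third set comes from tiles that were higher in females than in males, in introns of Gm29088 (chr1:111410756-111410913) and Dlg2 (chr7:91638912-91639054). Every base of both stretches is marked as repeat in the reference, and they held 6 and 2 CpG sites.
Gm29088: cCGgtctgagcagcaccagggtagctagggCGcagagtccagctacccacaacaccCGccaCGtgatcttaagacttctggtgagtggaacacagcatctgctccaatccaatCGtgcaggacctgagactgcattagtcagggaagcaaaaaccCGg
Dlg2: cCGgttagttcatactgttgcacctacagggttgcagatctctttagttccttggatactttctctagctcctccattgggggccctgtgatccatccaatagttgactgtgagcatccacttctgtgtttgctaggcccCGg

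Gene-body tiles were highly methylated. In saline mice their median was 84.0% (quartiles 72.8% and 90.9%), 61.0% of them lay at 80% or above, and 1.12% (869 tiles) lay below 20%. The medians of the other groups were 83.6% in amphetamine-treated mice, 84.4% in females and 83.3% in males. The spread between mice depended on the level. The median SD over the 6 saline mice was 21.9 percentage points for tiles between 20% and 50%, 17.8 points between 50% and 80%, 10.0 points between 80% and 95%, and 8.93 points below 20%.

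Tiles outside genes that were as far from islands had a median of 85.4% in saline mice (n = 95504 tiles), tiles within 5000 bp of an island 78% (n = 13960) and tiles on an island 6.44% (n = 15284). Tiles near or on an island could touch promoters, which were left out of the gene-body tiles and of those outside genes. Promoter tiles 5000 bp or more from an island had a median of 76.8% (n = 9107). Gene-body tiles held fewer repeats (median 24.2% of bases, against 38.1% outside genes) and more G and C (44.1% against 41.9%). At a repeat share of 10% to 20%, the median was 81.2% in gene bodies and 78% outside genes, and at 80% or more it was 88.7% and 88.5%. At 20% to 40%, the bin with the most gene-body tiles (n = 34258), the medians were 83.5% and 82.7%, and at 40% to 60% both were 86.7%. Thus, the gene-body tiles were lower than those outside genes over all tiles. At like repeat share they were higher among tiles with few repeats and close to those outside genes at 40% or more. These values describe all tiles of a class in the same mice, without values per mouse, so that the differences between classes were not tested.

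**Figure D1:**
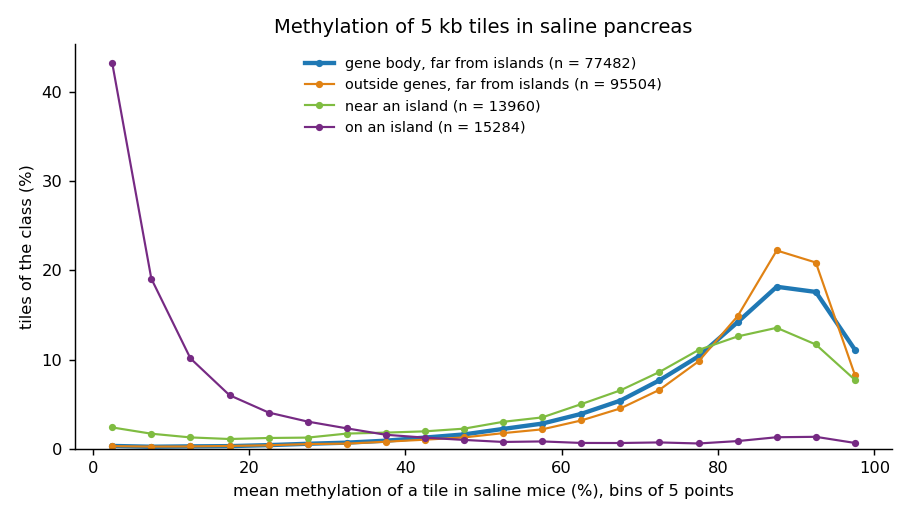
Share of tiles (vertical axis, percent of each class) by mean methylation in the 6 saline mice (horizontal axis, bins of 5 percentage points) for gene-body tiles and for tiles outside genes, near an island and on an island. Gene-body tiles peaked between 85% and 90%, with 18.2% of tiles, whereas tiles on islands peaked below 5%.

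Base composition and repeats both went with the level of gene-body tiles. Tiles with a GC content of 35% to 40% had a median of 87.4% in saline mice (n = 13015 tiles) and those of 50% to 55% had 77.8% (n = 8634). Repeats went the other way, from 81.0% where repeats made up less than 10% of the tile to 88.7% where they made up 80% or more. The share of tiles below 20% was 1.69% at a repeat share of 10% to 20% and 0.0293% (1 of 3410 tiles) at 80% or more. Both features were then crossed. At a GC content under 45%, the median was 83.5% with repeats under 20% and 88.3% with repeats of 60% or more, and at a GC content of 45% and above the same medians were 79.6% and 89.2%. The last value rests on 652 tiles with a median saline coverage of 341, against 79 for the 16926 tiles at 79.6%.

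Position had smaller differences. Tiles whose middle lay within 5 kb of the start of their gene had a median of 80.8%, and those more than 200 kb away had 85.1%. Tiles 5 to 10 kb from an island had 82.3% and those more than 200 kb away 86.3%. Genes under 10 kb had a median of 80.4% and genes over 500 kb 85.6%. Tiles without exon bases (83.8%, n = 37605) and tiles with at least 2500 exon bases (85.7%, n = 3102) were close. Tiles of genes with a promoter below 10% methylated in saline mice (84.2%, n = 46703) and of genes with a promoter at 80% or above (83.3%, n = 2952) differed by less than 1 percentage point. The quartiles of neighbouring bins overlapped for every feature plotted.

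**Figure D2:**
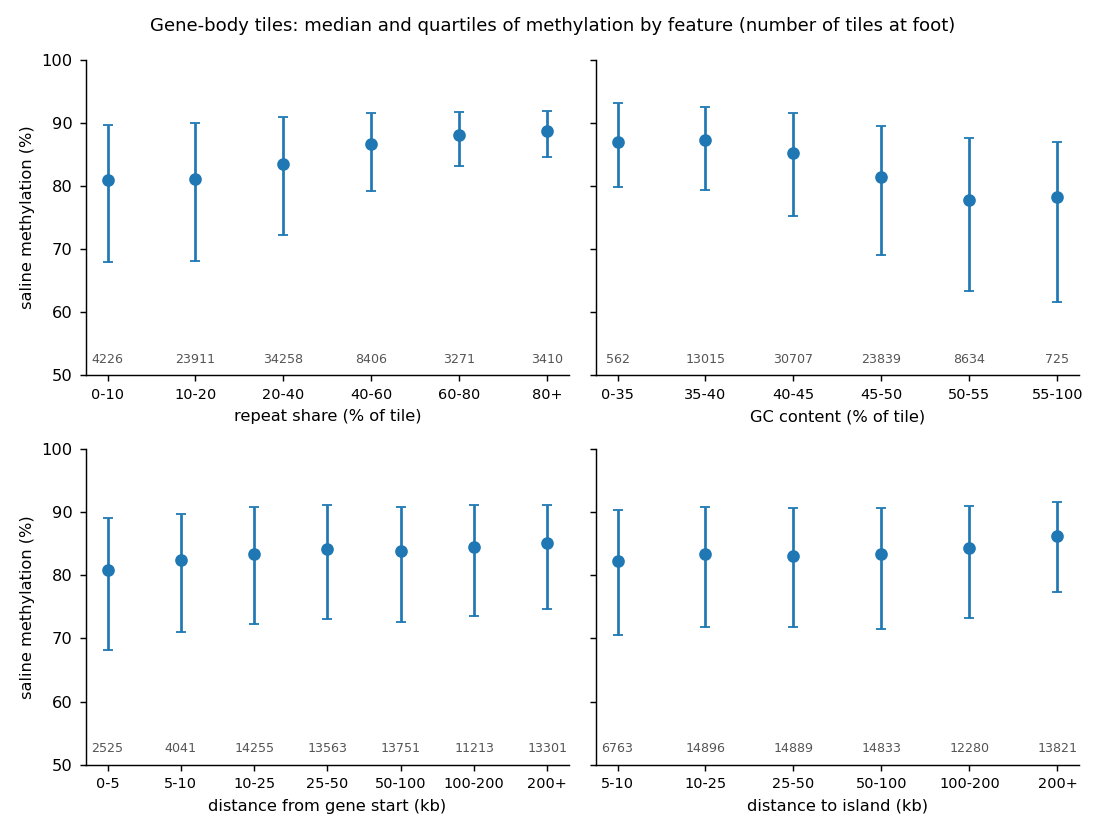
Median (point) and quartiles (bars) of saline methylation (vertical axis, percent, from 50%) of gene-body tiles by repeat share, GC content, distance from the gene start and distance to the nearest island, with the number of tiles at the foot of each bin. The median rose from 81.0% to 88.7% with the repeat share and was lowest, 77.8%, at a GC content of 50% to 55%.

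The 869 gene-body tiles below 20% in saline mice lay in 833 genes, and 111 genes held at least 2 of them. Of these tiles, 618 were also below 20% in amphetamine-treated mice. In 179 tiles with reads in all 11 mice, every mouse was below 20%. Low tiles had more CpG sites than the other gene-body tiles (median 65 against 52), fewer repeats (19.4% against 24.3%), exon bases more often (60.1% against 51.4%) and a shorter distance to the gene start (42.5 kb against 55.1 kb). Because low tiles were chosen by the saline mean, their values in other groups are given as a description. Genes with most low tiles included Celf4, which encodes an RNA-binding splicing regulator (6 of its 32 tiles), Maml3, a coactivator of Notch signalling (5 of 53), Ank2, a membrane-cytoskeleton adaptor (4 of 48), Rbfox3, the neuronal splicing factor (4 of 52), Runx1t1, a transcriptional corepressor (4 of 10), and Pde4d, a cAMP phosphodiesterase (4 of 93). Gm20388, annotated over several megabases of chromosome 8, held 11 among 494.

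The 10 lowest tiles in saline mice, with a coverage of at least 50 in both treatment groups and reads in all mice, had saline means between 0% and 0.47%. In the exon-containing tile of Nckap5 (chromosome 1, 126735001 to 126740000), all 11 mice were at 0%, at a mean coverage of 50.7 in saline and 84.6 in amphetamine-treated mice. Dnajb4, which encodes a chaperone of the HSP40 family (chromosome 3, 152190001 to 152195000), and an intronic tile of Zswim6 (chromosome 13, 107830001 to 107835000) were likewise at 0% in all 11 mice. The least covered mouse had a coverage of 15 in Dnajb4 but only 3 in Zswim6. In Pde4dip, which encodes a centrosome and Golgi protein (chromosome 3, 97820001 to 97825000), all saline mice were at 0% and the amphetamine-treated mice averaged 0.99% (highest mouse 4.95%). Zfp148, a zinc-finger transcription factor gene (chromosome 16, 33400001 to 33405000), had 0.26% ± 0.63 in saline (SD, n = 6) and 1.5% ± 1.89 in amphetamine-treated mice (SD, n = 5).

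The other low tiles named by the same rule varied more between mice. In Cdh4, which encodes R-cadherin (chromosome 2, 179660001 to 179665000), saline mice were at 0% and amphetamine-treated mice ranged from 0% to 25%. In Gm14342 (chromosome 2, 180850001 to 180855000) the amphetamine-treated mice ranged from 0% to 34.3% (mean 18.3%), and in Celf4 (chromosome 18, 25620001 to 25625000) from 0% to 20%. The least covered saline mouse had a coverage of only 1 in Cdh4 and 6 in Gm14342. The tile shared by Kcnip4, for a protein that binds potassium channels, and Gm20700 (chromosome 5, 48595001 to 48600000) had 0.13% ± 0.32 in saline mice. In Pou4f1, a transcription factor of sensory neurons (chromosome 14, 104460001 to 104465000), saline mice had 0.47% ± 1.15 and amphetamine-treated mice ranged from 0% to 20%. As these tiles were picked for low saline values, a higher value in the other group cannot show whether there was a change. The ranges of both groups included 0% in all of these tiles.

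A tile near the overall median is given for scale. In Prkd1, a protein kinase gene (chromosome 12, 50340001 to 50345000), saline mice had 84.0% ± 10.8 (SD, n = 6; 63.2% to 93.0%) and amphetamine-treated mice 77.2% ± 24.6 (SD, n = 5; 40% to 100%), which overlapped.

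A gene held a median of 3 tiles, 4502 genes held 1, and 773 genes held 20 or more. Within these 773 genes the lowest and highest tile differed by a median of 64.4 percentage points in saline mice, whereas the medians of the genes ran from 61.8% to 94.0%. By number of tiles the genes were Gm20388 (494 tiles, median 75.5%), Fgfr2, a fibroblast growth factor receptor gene that the annotation extends over nearly 3 Mb (254 tiles, 80.3%), Wwox, an oxidoreductase gene at a fragile site (131 tiles, 78.7%), Camta1, a calmodulin-binding transcription activator (119 tiles, 76.4%), Cdh13, which encodes T-cadherin (118 tiles, 81.5%), ENSMUSG00000102805 (111 tiles, 84.6%), Ptprd, a receptor-type tyrosine phosphatase (109 tiles, 89.0%), and Cntnap2, a neuronal adhesion protein (104 tiles, 88.1%). Low medians among genes with 20 or more tiles were those of Ephb2, an ephrin receptor (61.8%, 25 tiles), Prdm16, a zinc-finger regulator of brown fat and stem cells (62.3%, 44 tiles), and Celf4 (63.9%, 32 tiles). These were named after their values were seen.

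Gene lists for cell types and pathways of the pancreas were described by the tiles they held. Genes of acinar cells, which make digestive enzymes, had the lowest median in saline mice (75%, 47 tiles in 15 of the 23 listed genes in the table). Endothelial genes had 78.7% (193 tiles), immune genes 80.4% (132 tiles), genes of the mesenchyme 81.9% (165 tiles), islet genes 82.9% (334 tiles), genes for serotonin and other monoamines 84.7% (139 tiles), duct genes 85.6% (154 tiles), genes for glutamate signalling and synapses 86.1% (1505 tiles) and genes of the DNA methylation machinery 87.0% (136 tiles), against 84.0% over all gene-body tiles. Their GC content also differed, from a median of 40.2% in the synapse list to 46.3% in the mesenchyme list, and its part in the order was not tested.

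Within the lists, the genes with most tiles were Ctrc, for chymotrypsin C (7 tiles, median 88.8%), and Nr5a2, an acinar nuclear receptor (12 tiles, 78.1%), Cacna1c, the L-type calcium channel of beta cells (56 tiles, 83.4%), and Ptprn2, a secretory granule protein (53 tiles, 86.7%), Pkhd1, which encodes fibrocystin (39 tiles, 88.0%), and Glis3, a transcription factor of islets and ducts (28 tiles, 86.9%). For the mesenchyme they were Fbn2, for fibrillin (23 tiles, 90.1%), and Col4a2, for a collagen of basement membranes (22 tiles, 79.95%), for the endothelium Mecom (52 tiles, 75.7%) and Erg (30 tiles, 75.9%), both transcription factors, and for immune cells Dock2, a regulator of leukocyte migration (42 tiles, 81.1%), and Runx1 (26 tiles, 78.2%). In the remaining lists they were Ptprd and Cntnap2, given above, Htr1f, a serotonin receptor gene (18 tiles, 85.0%), Slc22a3, a monoamine transporter (12 tiles, 80.6%), Mbd5, a methyl-CpG-binding domain protein (22 tiles, 90.9%), and Kdm2b, a histone demethylase that binds unmethylated CpG sites (14 tiles, 82.8%).

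The lowest tile of each list was in most cases thinly covered. In Gata4, a transcription factor of the acinar list, the tile at chromosome 14, 63265001 to 63270000, stood apart with a coverage of 682 in saline mice and 144 CpG sites. It had 7.56% ± 3.19 in saline (SD, n = 6; 2.78% to 11.2%) and 8.14% ± 3.32 in amphetamine-treated mice (SD, n = 5; 2.52% to 11.2%), so that all 11 mice were low and the groups overlapped. In Mecom (chromosome 3, 30215001 to 30220000), saline mice ranged from 0% to 33.3% and amphetamine-treated mice from 0% to 29.4%. In Ptprc, the pan-leukocyte surface phosphatase (chromosome 1, 138135001 to 138140000), the ranges were 0% to 56.0% and 16.9% to 82.3%. The lowest tiles of Cacna1d, Pkhd1, Col4a2, Magi2, Tph2 and Dnmt3a lacked reads in at least 1 mouse each, with saline means of 0%, 5.43%, 18.3%, 0%, 13.3% and 13.2%.

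**Figure D3:**
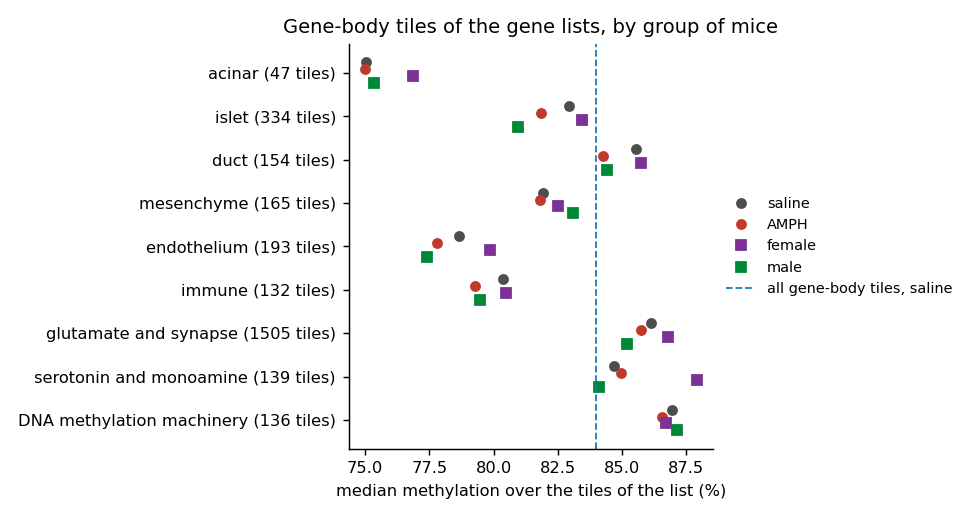
Median methylation (horizontal axis, percent, from 75%) over the gene-body tiles of each gene list in saline, amphetamine-treated (AMPH), female and male mice, with the number of tiles beside the name and the median of all gene-body tiles in saline mice as a dashed line. The acinar list lay lowest at 75% in saline mice and the DNA methylation machinery highest at 87.0%.

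To ask whether prenatal amphetamine altered the methylation of gene bodies, amphetamine-treated and saline mice were compared tile by tile with limma's moderated test, computed from the mean, SD and number of mice and adjusted by Benjamini-Hochberg over all 259187 tiles tested. Of 77472 gene-body tiles tested, 8 (0.0103%) had an adjusted p under 0.05, 1 higher and 7 lower after amphetamine. Over every tile of the table this share was 0.0185%, and over tiles of chromosomes 1 to 19 with the same coverage minimum it was 0.00568% (12 tiles). Those 12 include the gene-body tiles, and without gene-body tiles the share was 0.00299% (4 tiles). In 6 of the 8, the SD of a group was 0, that is, all its mice with reads had the same value. Requiring an SD above 0 in both groups left 2 of them, requiring reads in all 11 mice left 3, and a minimum coverage of 50 left 1.

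The tile with the smallest adjusted p among those read in all mice lay in an intron of Etl4, a gene of the notochord and intervertebral disc (ENSMUSG00000036617, chromosome 2, 20370001 to 20375000). All 6 saline mice were at 100% and the 5 amphetamine-treated mice ranged from 35.5% to 62.5%, with a mean of 49.6% ± 9.57 (SD), at coverages of 30.5 and 55. The difference was -50.4 percentage points (SE 3.82, adjusted p = 0.00106 by limma's test). In the tile shared by Col4a2, for a basement membrane collagen, and Gm15419 (chromosome 8, 11415001 to 11420000), saline mice ranged from 87.0% to 100% and amphetamine-treated mice from 53.3% to 66.7% (adjusted p = 0.0161). In both tiles all 11 mice were read and the groups did not overlap. Mean coverage in the Col4a2 tile was 23.7 in saline and 47.4 in amphetamine-treated mice, and 5 in the least covered saline mouse. Etl4 also passed with a prior variance that follows mean methylation and when only the covered tiles of chromosomes 1 to 19 were fitted, whereas Col4a2 passed in neither fit.

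A further 5 tiles that passed lacked reads in some mice. Magi2, a scaffold protein of synapses and cell junctions (chromosome 5, 20250001 to 20255000), was at 100% in the 5 saline mice read and averaged 48.0% in the 3 amphetamine-treated mice read (adjusted p = 0.000933). The noncoding transcript 6030442K20Rik (chromosome 1, 132470001 to 132475000) had 98.9% ± 2.56 in 5 saline and 62.8% ± 5.74 in 5 amphetamine-treated mice (adjusted p = 0.00474). Dab1, an adaptor of reelin signalling (chromosome 4, 103930001 to 103935000), rested on 2 amphetamine-treated mice, both at 66.7%, against 5 saline mice at 100% (adjusted p = 0.0177). Sbf2, a phosphatase-related protein of membrane traffic (chromosome 7, 110595001 to 110600000), had 100% in 6 saline mice and 78.5% ± 3.71 in 3 amphetamine-treated mice (adjusted p = 0.0248). The tile that was higher lay in Acvr1, a receptor of bone morphogenetic proteins (chromosome 2, 58525001 to 58530000), with 50% in all 3 saline mice read and 100% in all 4 amphetamine-treated mice read (adjusted p = 0.00123), at coverages of 12.5 and 12.6. Of these 5, Dab1 and Sbf2 did not pass in the fit restricted to covered tiles of chromosomes 1 to 19, and 6030442K20Rik and Acvr1 did not pass with the other prior.

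Without adjustment, 1.81% of gene-body tiles had a p under 0.05 and were higher after amphetamine (1405 tiles), and 2.84% were lower (2198 tiles). The same shares over all tiles of chromosomes 1 to 19 with that coverage were 1.84% and 2.62%. Of the 65013 tiles read in all mice, the groups did not overlap in 98 that were higher and 144 that were lower after amphetamine (0.151% and 0.221%), where all such tiles gave 0.15% and 0.211%. Those totals include the gene-body tiles. Without them, the shares with a p under 0.05 were 1.85% and 2.50%, and the shares without overlap 0.15% and 0.206%. The median difference over gene-body tiles was -0.105 percentage points, with 37414 tiles higher and 39209 lower, and the central 90% of tiles ran from -17.0 to 16.7 points. With the thresholds of the study on fold change (above 1.5) and difference (above 25 percentage points) added, 6 tiles had an adjusted p under 0.05, where all tiles of chromosomes 1 to 19 held 7 (0.00331%), and 584 (0.754%) had an unadjusted p under 0.05, against 0.7%. Without the gene-body tiles, the same thresholds left 1 tile by adjusted p and 0.669% of tiles by unadjusted p.

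Among tiles with all 11 mice read and no overlap, the 6 higher tiles of smallest p did not pass the adjustment (adjusted p from 0.253 to 0.553). In Spen, a transcriptional corepressor (chromosome 4, 141500001 to 141505000), saline mice ranged from 73.9% to 82.6% and amphetamine-treated mice from 83.3% to 100%. In Foxn3, a forkhead repressor (chromosome 12, 99405001 to 99410000), the most deeply covered of the 6, saline mice ranged from 0% to 7.22% and amphetamine-treated mice from 10.9% to 26.4% (means 3.53% ± 3.05 and 19.9% ± 6.85), at coverages of 279 and 328. In Eml5, a microtubule-associated protein (chromosome 12, 98865001 to 98870000), the ranges were 15.6% to 69.8% and 79.2% to 100%. In Arl6ip5, an endoplasmic reticulum protein (chromosome 6, 97220001 to 97225000), they were 22.0% to 50% and 54.8% to 72.5%. The remaining higher tiles were in Gm5106, an antisense gene (chromosome 5, 8785001 to 8790000; means 69.3% and 86.9%), and at the start of Car6, a secreted carbonic anhydrase (chromosome 4, 150200001 to 150205000; ranges 45.6% to 54.2% and 55.9% to 75%), of which 1332 of the 5000 bases lie in the gene. Mean coverage in saline and amphetamine-treated mice was 15.7 and 19.6 for Gm5106 and 23.8 and 33.2 for Car6. The least covered saline mouse had a coverage of 6 in Gm5106 and 4 in Car6.

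In the downward direction, Cntnap4, a neuronal adhesion protein (chromosome 8, 112700001 to 112705000), and Dnajc10, a reductase of the endoplasmic reticulum (chromosome 2, 80330001 to 80335000), were at 100% in all 6 saline mice. Their amphetamine-treated mice ranged from 79.2% to 90.3% and from 71.4% to 86.4% (both adjusted p = 0.0541 by limma's test). Cntnap4 passed with the prior that follows mean methylation but not in the fit restricted to covered tiles, and Dnajc10 passed in neither. In Tfdp2, a dimerization partner of E2F factors (chromosome 9, 96285001 to 96290000), saline mice ranged from 87.4% to 100% and amphetamine-treated mice from 50% to 78.6% (adjusted p = 0.136). The least covered mouse of this tile had a coverage of 3 in saline and 8 in amphetamine-treated mice.

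**Figure D4:**
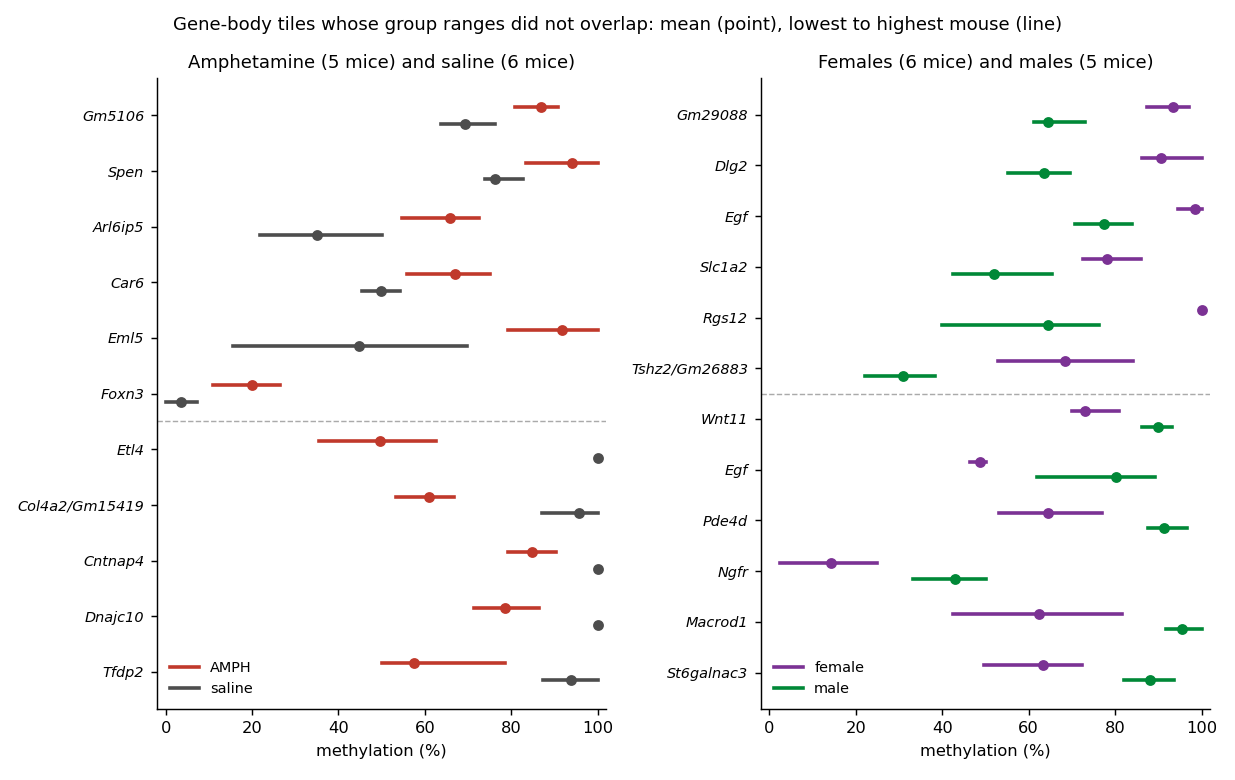
Mean (point) and lowest to highest mouse (line) of methylation (horizontal axis, percent) in gene-body tiles of smallest p for treatment (left, 6 higher above and 5 lower below the dashed line) and for sex (right, 6 and 6), among tiles with reads in all 11 mice and no overlap of groups. Because tiles were chosen for ranges that do not overlap, the gap in each row is part of the choice. A point without a line marks a group whose mice all had the same value.

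The tiles of the gene lists were then counted for treatment. An adjusted p under 0.05 was found for 1 tile of the mesenchyme list (Col4a2) and 1 of the synapse list (Magi2), both given above, and for 0 tiles of the other 7 lists by limma's test. Without adjustment, the shares over all gene-body tiles were 1.81% higher and 2.84% lower after amphetamine. In the synapse list they were 1.46% and 3.46% (22 and 52 of 1505 tiles), in the islet list 1.5% and 2.69% (5 and 9 tiles), in the mesenchyme list 1.82% and 4.85% (3 and 8 tiles) and in the immune list 3.03% and 3.79% (4 and 5 tiles). The counts higher and lower were 4 and 3 in the endothelial list, 3 and 3 in the monoamine list, 3 and 1 in the DNA methylation machinery, 1 and 1 in the duct list and 0 and 1 in the acinar list. The median difference was between -0.80 and 0.34 percentage points in 8 lists and -3.48 points in the acinar list, where 21 tiles were higher and 25 lower. Over the 136 tiles of the DNA methylation machinery, 70 were higher and 65 lower after amphetamine.

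Sex was compared over the same mice and the same tiles, which leave out the X and Y chromosomes. The prior variance and the adjustment, however, took in all 258011 tiles tested, those of the sex chromosomes included. Of 77387 gene-body tiles tested, 10 (0.0129%) had an adjusted p under 0.05 by limma's test, 8 higher and 2 lower in females, against 0.0114% of tiles of chromosomes 1 to 19 (24 tiles) and 0.076% over the whole table, which includes the sex chromosomes. Without the gene-body tiles, the share on chromosomes 1 to 19 was 0.0105% (14 tiles). In 3 of the 10 the SD of a group was 0. Requiring reads in all 11 mice left 4 of them and a minimum coverage of 50 left 3.

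Of those 4, the long intergenic RNA gene Gm29088 (chromosome 1, 111410001 to 111415000) had 93.5% ± 3.33 in females (87.4% to 97.2%) and 64.4% ± 4.82 in males (61.3% to 73.0%), at coverages of 142 and 121 (adjusted p = 0.00221), in a tile of which repeats made up 91.0%. Dlg2, a postsynaptic scaffold protein (chromosome 7, 91635001 to 91640000), had 90.5% ± 5.23 in females and 63.5% ± 5.39 in males (adjusted p = 0.0160), at coverages of 39 and 22.4. Egf, which encodes epidermal growth factor (chromosome 3, 129685001 to 129690000), had 98.4% ± 2.37 in females (94.4% to 100%) and 77.3% ± 6.27 in males (70.7% to 83.9%), at coverages of 157 and 158 (adjusted p = 0.0326). The tile at the 3′ end of Wnt11, a Wnt ligand (chromosome 7, 98855001 to 98860000), was lower in females, 72.9% ± 4.15 against 89.8% ± 2.41 (adjusted p = 0.0346), and overlapped the gene by 195 bases. Gm29088 also passed with the prior that follows mean methylation and in the fit restricted to covered tiles of chromosomes 1 to 19, Egf passed with that prior but not in the restricted fit, and Dlg2 and Wnt11 passed in neither. In each of these 4 tiles the saline and amphetamine-treated means differed by 2.11 percentage points or less.

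Egf held 7 gene-body tiles. The tile at its 3′ end (129675001 to 129680000, 2426 bases in the gene) was lower in females, 48.8% ± 1.51 (46.3% to 50%) against 80.3% ± 11.8 in males (62.0% to 89.2%), with adjusted p = 0.0596. The tile between it and the one that was higher in females had 74.4% ± 9.03 in females and 75.5% ± 10.5 in males, which overlapped. The other 4 Egf tiles had adjusted p from 0.912 to 1. Thus, tiles 5000 bp apart in the same gene had differences of -31.5, -1.14 and 21.1 percentage points.

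The other 6 tiles that passed for sex lacked reads in some mice. Cd36, the fatty acid translocase (chromosome 5, 17840001 to 17845000), had 4 females at 100% and 4 males between 0% and 25% (adjusted p = 0.00379), at coverages of 18.2 and 18.6. Kctd5, an adaptor of ubiquitin ligases (chromosome 17, 24060001 to 24065000), had 98.9% in 6 females and 48.0% in 3 males (adjusted p = 0.000591), and Ube4a, a ubiquitin ligase (chromosome 9, 44950001 to 44955000), had 92.1% in 6 females and 48.8% in 4 males (adjusted p = 0.0163). Padi2, a peptidylarginine deiminase, with Gm13031 (chromosome 4, 140950001 to 140955000) had 6 females at 100% and a mean of 75.7% over 4 males (adjusted p = 0.0147). The antisense gene Uchl1os (chromosome 5, 66645001 to 66650000) rested on 3 mice of each sex, 99.1% and 52.3% (adjusted p = 0.0318), as did Gm11571 (chromosome 11, 100065001 to 100070000), the tile that was lower in females, with 66.7% in all 3 females and 100% in all 3 males read (adjusted p = 0.0284). Uchl1os and Gm11571 passed in neither of the other fits, and Padi2 and Ube4a did not pass in the restricted fit.

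Further tiles without overlap of the sexes did not pass the adjustment. Slc1a2, a glutamate transporter (chromosome 2, 102665001 to 102670000), had 78.2% ± 5.70 in females and 52% ± 8.81 in males at coverages of 238 and 205 (adjusted p = 0.106). In Rgs12, a regulator of G protein signalling (chromosome 5, 34955001 to 34960000), all 6 females were at 100% and males ranged from 40% to 76.2%. In the tile of Tshz2, a zinc-finger transcription factor, and Gm26883 (chromosome 2, 169740001 to 169745000), females ranged from 53.0% to 84.2% and males from 22.2% to 38.4%. In the other direction, Ngfr, the low-affinity neurotrophin receptor (chromosome 11, 95570001 to 95575000), had 14.2% ± 9.14 in females and 42.9% ± 7.15 in males. Pde4d (chromosome 13, 109315001 to 109320000) had 64.5% and 91.2%, Macrod1, an ADP-ribose hydrolase (chromosome 19, 7125001 to 7130000), 62.5% and 95.4%, and St6galnac3, a sialyltransferase (chromosome 3, 153605001 to 153610000), 63.3% and 88.0%, with adjusted p from 0.0635 to 0.164 by limma's test.

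The sexes also differed in the middle of the distribution, which was not tested. The median difference between females and males over gene-body tiles was 0.676 percentage points, with 41629 tiles higher in females and 34917 lower. Outside genes it was 1.08 points, near islands 0.318 and on islands -0.0513. Without adjustment, 3.47% of gene-body tiles had a p under 0.05 and were higher in females (2686 tiles) and 2.07% were lower (1599 tiles), against 3.52% and 1.88% of all tiles of chromosomes 1 to 19. The sexes did not overlap in 0.311% of the tiles read in all mice with females higher (202 tiles) and in 0.157% with females lower, against 0.337% and 0.144%. With fold change above 1.5 and a difference above 25 points added, 4 tiles had an adjusted p under 0.05, where all tiles of chromosomes 1 to 19 held 10 (0.00474%), and 839 (1.08%) had an unadjusted p under 0.05, against 0.891%. Those totals include the gene-body tiles. Without them, the shares with a p under 0.05 were 3.55% and 1.77%, and the shares without overlap 0.352% and 0.137%. The added thresholds then left 6 tiles by adjusted p and 0.78% of tiles by unadjusted p.

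The sex difference went with the sequence of the tile. Its median was 0.351 percentage points in gene-body tiles with a repeat share under 10%, 0.184 points at 10% to 20% and 1.22 to 1.35 points at 40% or more. At 80% or more, 64.8% of tiles were higher in females. Tiles outside genes also had larger values at high repeat shares, with 0.701 points under 10%, 0.372 points at 10% to 20% and 1.23 points at 80% or more. In gene-body tiles the median was 0.250 points at a GC content under 35% (n = 562 tiles), 1.01 points at 35% to 40% and 0.328 points at 50% to 55%. It was 0.314 points at 5 to 10 kb from an island and 0.989 points beyond 200 kb. The difference between amphetamine-treated and saline mice stayed between -0.224 and 0 points over the same bins of repeat share. The ratio of female to male coverage over these tiles was 1.10, and its part in the sex difference was not tested. By coverage, the median sex difference was 0 points at 10 to 20, where 49.0% of 10273 tiles were higher in females, and between 0.663 and 0.847 points in the bins above, with 0.724 points at 200 or more. Whether the shift was shared by all mice of a sex cannot be told from group means.

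**Figure D5:**
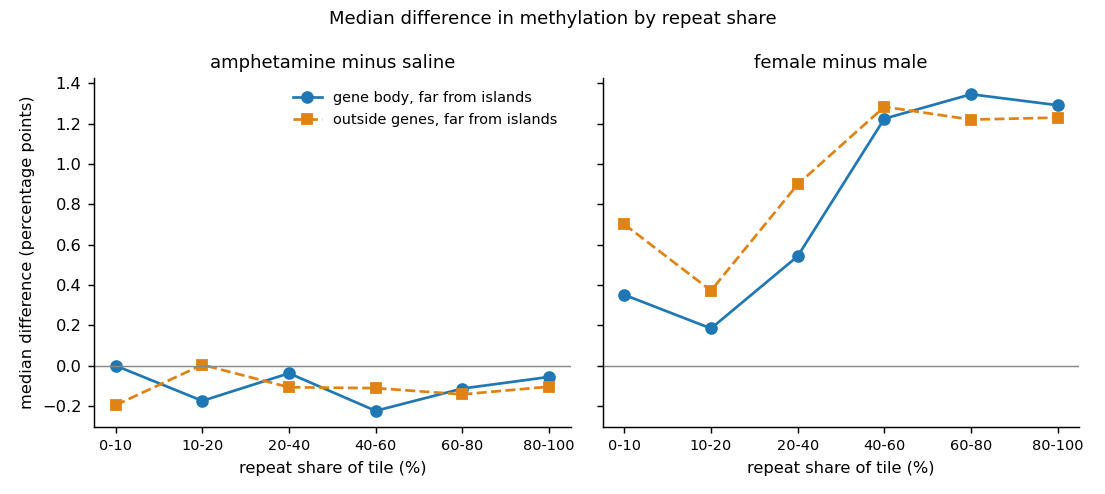
Median difference in methylation (vertical axis, percentage points) of tiles by repeat share (horizontal axis, percent of bases), amphetamine minus saline on the left and female minus male on the right, in gene-body tiles (circles) and tiles outside genes (squares). The sex difference in gene bodies was 0.351 points under 10% repeats, 0.184 points at 10% to 20% and 1.35 points at 60% to 80%. The treatment difference lay between -0.224 and 0 points in gene bodies.

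The lists were counted for sex in the same way. Dlg2 in the synapse list was the tile with an adjusted p under 0.05, and limma's test gave 0 in the other 8 lists. Without adjustment, the shares over all gene-body tiles were 3.47% higher and 2.07% lower in females. In the synapse list they were 3.99% and 1.33% (60 and 20 tiles), in the islet list 3.29% and 1.5% (11 and 5 tiles), in the mesenchyme list 5.45% and 1.21% (9 and 2 tiles) and in the monoamine list 5.04% and 3.60% (7 and 5 tiles). The counts higher and lower were 7 and 2 in both the immune list and the DNA methylation machinery, 7 and 0 in the endothelial list, 5 and 0 in the duct list and 3 and 1 in the acinar list. The median sex difference was 3.23 points over the 139 monoamine tiles (87 higher and 50 lower in females), 2.39 over the immune tiles, 1.66 over the islet tiles and 1.57 over the duct tiles. It was 1.0 over the synapse tiles, 0.530 over the endothelial tiles, 0.291 over the mesenchyme tiles, 0.00442 over the DNA methylation machinery and -0.426 over the acinar tiles. All gene-body tiles gave 0.676 points, with 41629 tiles higher and 34917 lower in females.

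Neighbouring tiles of the same gene were weakly correlated in level. Over 35469 pairs of adjacent gene-body tiles, the saline level correlated with r = 0.182, and with r = 0.293 over the 4758 pairs with a coverage of at least 100 throughout. The difference between amphetamine-treated and saline mice correlated with r = 0.00604 and the difference between sexes with r = 0.0145 over the same pairs, and the signs matched in 50.1% and 51.1% of pairs. These are correlations across tiles measured in the same mice, and tiles are not independent replicates. The precision of a tile followed its coverage. The median absolute treatment difference was 7.96 percentage points at a coverage of 10 to 20 and 2.84 points at 200 or more, and a group had an SD of 0 in 21.7% and 0.0112% of these tiles.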

How the data were processed

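DNA methylation was measured by reduced representation bisulfite sequencing in pancreas. Per the methods of the study, DNA was cut with MspI and TaqI, single-end reads were mapped by Bismark (methylseq pipeline of NextFlow) on mm10, and CpG sites were summarized by region with RnBeads. The labels also name limma and methylKit, and no versions were given in the sources used here.

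Methylation in the deposited tables is a fraction, which the authors gave as mean, SD, lowest and highest value of a group and which is printed here as a percent. Coverage, deposited as a signal, is the group's average of a whole number for each mouse and was not scaled to depth. Other deposited columns hold the number of mice without a value and the authors' differences, quotients, p-values and ranks, and the latter were not used. Depth was known only through these coverages.

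Tiles were joined to the deposited regions of genes, promoters and islands. CpG sites, cut sites, repeats (soft-masked bases) and GC content were counted in GRCm38.p6, and exons in GENCODE M21, where 25426 of 25802 genes matched by identifier. A promoter missing from the promoter table could not exclude a tile, and 1566 gene-body tiles (2.02%) held the start of a gene. In tiles of several genes all were named.

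Groups were compared with limma's moderated test (version 3.58.1, R 4.3.3), two-sided, rebuilt from group means, SDs and numbers of mice, without covariates and with prior variance estimated over all tiles. The rebuilt test was run on simulated data for 184605 tiles with reads in all mice, 200 of them shifted. Values were drawn from a normal distribution without bounds, with the mean and pooled SD of each tile, and the shift was several times that SD. In both comparisons 99.5% of shifted tiles had a p under 0.05, but only 43% had an adjusted p under 0.05. These shares hold for that large shift and give no rate for smaller differences. Of the unchanged tiles, 3 passed the adjustment for treatment and 7 for sex. No rate was obtained for tiles that lack mice or in which all mice of a group had the same value. The design named the study's limma test, which the deposited tables allowed only in the form rebuilt from group values.

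The members and gene lists were chosen with earlier results of these data known. The genes named were, per comparison, the 6 higher and 6 lower tiles of smallest p with all mice read and no overlap, the 10 tiles of lowest saline methylation (coverage of at least 50, 3 or more reachable CpG sites) and a typical one, the genes with most tiles and the lowest tile in each list, the 8 genes with most tiles, and every tile with an adjusted p under 0.05. Alternatives were other minima of coverage and island distance, filters on mice, SD and genes, and other priors and tile sets for the test. The sequence of 1 tile and the values of 2 genes that these rules or lists would name are not reported here.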

Additional observations from a re-analysis of the deposited data

How the results depend on the processing

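The median saline methylation of gene-body tiles (83.3% to 84.1%) and the median differences for treatment (-0.192 to -0.0301 percentage points) and sex (0.617 to 0.845 points) kept their direction under all 9 alternatives tried. These alternatives overlap in their tiles. In separate bins of coverage, the median treatment difference was 0 points at 10 to 20, -0.320 points at 50 to 100 and 0.0115 points at 200 or more. Counts of adjusted calls did not hold. For treatment, the 8 tiles became 13 at a minimum coverage of 5, 4 at 20, 1 at 50, 3 with reads in all 11 mice required, 2 with an SD above 0 in both groups required, and 4 when only tiles of chromosomes 1 to 19 with coverage of at least 10 were fitted. For sex, the 10 tiles became 22 at a minimum coverage of 5, 3 at 50, 4 with all mice required, and 3 with the restricted fit. A prior variance with a trend on mean methylation gave 6 and 7 calls, of which 5 and 6 were shared with those reported. At a minimum coverage of 50, where 43854 tiles remain, unadjusted p under 0.05 was found in 2114 tiles in place of 3603 for treatment and 2513 in place of 4285 for sex, and treatment groups did not overlap in 160 tiles in place of 242. With an unadjusted p and the study's other thresholds, 584 tiles in place of 6 passed for treatment and 839 in place of 4 for sex. The other counts stayed within 1.5 times their value. Leaving out each mouse could not be run on group means. No paired analysis was possible because only group means and SDs were given, not values per mouse. The number of mice and the coverage limit the precision of single tiles.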

Other observations

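Chromosomes differed little in the methylation of gene bodies. The median over gene-body tiles in saline mice ran from 81.5% on chromosome 11, which also had the highest median GC content of these tiles (46.2%), to 85.3% on chromosome 1 (43.2%). The median sex difference was above 0 on each of the 19 autosomes, from 0.350 percentage points on chromosome 12 to 0.971 on chromosome 9. The median treatment difference was above 0 on no autosome. It was 0 on chromosomes 7, 9, 12 and 14, below 0 on the others, and farthest from 0 on chromosome 17, at -0.400 points.

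By type of gene, the median in saline mice was 84.0% over 67220 tiles of protein-coding genes, 83.6% over 2859 tiles of long intergenic RNA genes, 83.7% over 944 tiles of antisense genes and 86.4% over 113 tiles of processed pseudogenes. Tiles below 20% made up 1.07%, 1.61%, 1.91% and 0% of them. Among genes with 20 or more tiles, the highest medians were those of Gtdc1 (94.0%), Cfap54, a protein of motile cilia (92.9%), Wdfy3, a protein of selective autophagy (92.6%), and Rsrc1, a splicing-related protein (92.6%), named after their values were seen. The 1566 tiles that held the start of a gene had a median of 81.9%, and 2.62% of them were below 20%.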
